A study of Mus musculus with 6 samples.

Results

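The genes described here are the nuclear-encoded parts of respiratory complexes II, III, IV and V in small intestinal epithelium of mice with and without the corepressor NCoR1 (gene Ncor1) and a partner corepressor. They were chosen by symbol and not by any measured value, but with earlier results of these data known. The rule took protein-coding genes with the GENCODE symbol of a succinate dehydrogenase subunit or assembly factor (Sdha to Sdhd, Sdhaf1 to Sdhaf4). It also took protein-coding genes whose symbol begins with Uqcr, Cox4 to Cox8 or Atp5, or is Cyc1 or Cycs. The rule found 54 of the 55450 gene identifiers in the count table, of which 8 belong to complex II, 9 to complex III, 1 to cytochrome c, 18 to complex IV and 18 to complex V. After the filter on low counts 48 of the 54 were tested. The mitochondrially encoded subunits were not analysed here.

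The respiratory chain sits in the inner mitochondrial membrane. Complex II (succinate dehydrogenase) oxidises succinate in the citric acid cycle and passes its electrons to ubiquinone, complex III (the cytochrome bc1 complex) passes them on to the small carrier cytochrome c, and complex IV (cytochrome c oxidase) hands them to oxygen. Complexes III and IV pump protons as they do so, and complex V (ATP synthase) lets the protons flow back through its membrane ring and makes ATP in its F1 head. Absorptive enterocytes take up and package nutrients with the ATP that this chain supplies. The nuclear genes of the chain are known targets of NRF1, GABP and the oestrogen-related receptors, which work with the coactivator PGC-1 alpha.

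The study compared 3 control mice (animals 482, 483 and 486) with 3 knockout mice (423, 476 and 477), with 1 polyA RNA-seq library each. All 6 carried floxed alleles of both corepressor genes on both chromosomes (Ncor1loxP/loxP and the same for the partner gene), and all were on the protocol of intraperitoneal tamoxifen, 15 mg per 100 g body weight for 5 days, at 8 to 9 weeks of age. Only the knockouts carried Vil1-Cre-ERT2, a tamoxifen-activated Cre recombinase driven by the villin 1 promoter, which is active in intestinal epithelial cells, so the deletion and the transgene cannot be told apart. Mice were kept at 22 °C and entered metabolic cages on day 21, and the epithelium was scraped off the opened intestine with a glass slide. The labels do not say whether a library is duodenum, jejunum or ileum. They name 1 animal per library, and p-values measure the spread between these animals only.

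Libraries held 23476031 to 46835165 counts, so that a floor of 3 counts corresponded to 0.0585 to 0.172 CPM (counts relative to library size). CPM were scaled by TMM, which equalises the bulk of genes between libraries; its factors ran from 1.09 to 1.28 in controls and from 0.741 to 0.975 in knockouts. The targeted gene Ncor1 measured 140, 137 and 99.3 CPM in the controls and 31.3, 36.3 and 22.5 CPM in knockouts (log2 fold change -2.06, SE 0.25, adjusted p = 0.00045 by edgeR). Enterocyte markers were high in all 6 libraries (summed over 8 genes, 38800 to 54900 CPM in the controls and 71300 to 146000 in knockouts), but they did not move as one: Fabp2 (2.20) and Apoa4 (1.27) rose, Anpep (-2.77) and Vil1 (-1.20) fell, and the median log2 fold change of the 8 was 0.11. Below, 3 values and 3 values are always controls 482, 483 and 486 followed by knockouts 423, 476 and 477, and fold changes are knockout over control. In these bulk samples fewer cells of a type and less RNA per cell cannot be told apart.

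Of the 48 tested members 9 rose in the knockouts, 1 fell and 38 did not pass the test. The test was edgeR's quasi-likelihood test over 15028 genes with a threshold of 0.05 on the adjusted p. Those that rose were Sdhd, Sdhaf1, Sdhaf2 and Sdhaf3 of complex II, Uqcr10 of complex III, Cox5b and Cox7b of complex IV, and Atp5h and Atp5mpl of complex V, and the one that fell was Cox6b2 of complex IV. The 9 make up 18.8% of the tested members, where 17.3% of all genes rose, and the 1 makes up 2.08%, where 18.3% of all genes fell. The share that rose is thus near the background, and the share that fell is below it. The log2 fold change was positive in 41 members and negative in 7, with a median of 0.55 against -0.06 over all genes tested. At an unadjusted p under 0.05 there were 24 members, 22 higher and 2 lower. All 3 knockouts lay above all 3 controls in 15 members (31.2%, where 23.9% of all genes did) and below them in 2, Sdha and Cox6b2 (4.17%, where 26.4% did).

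**Figure D1:**
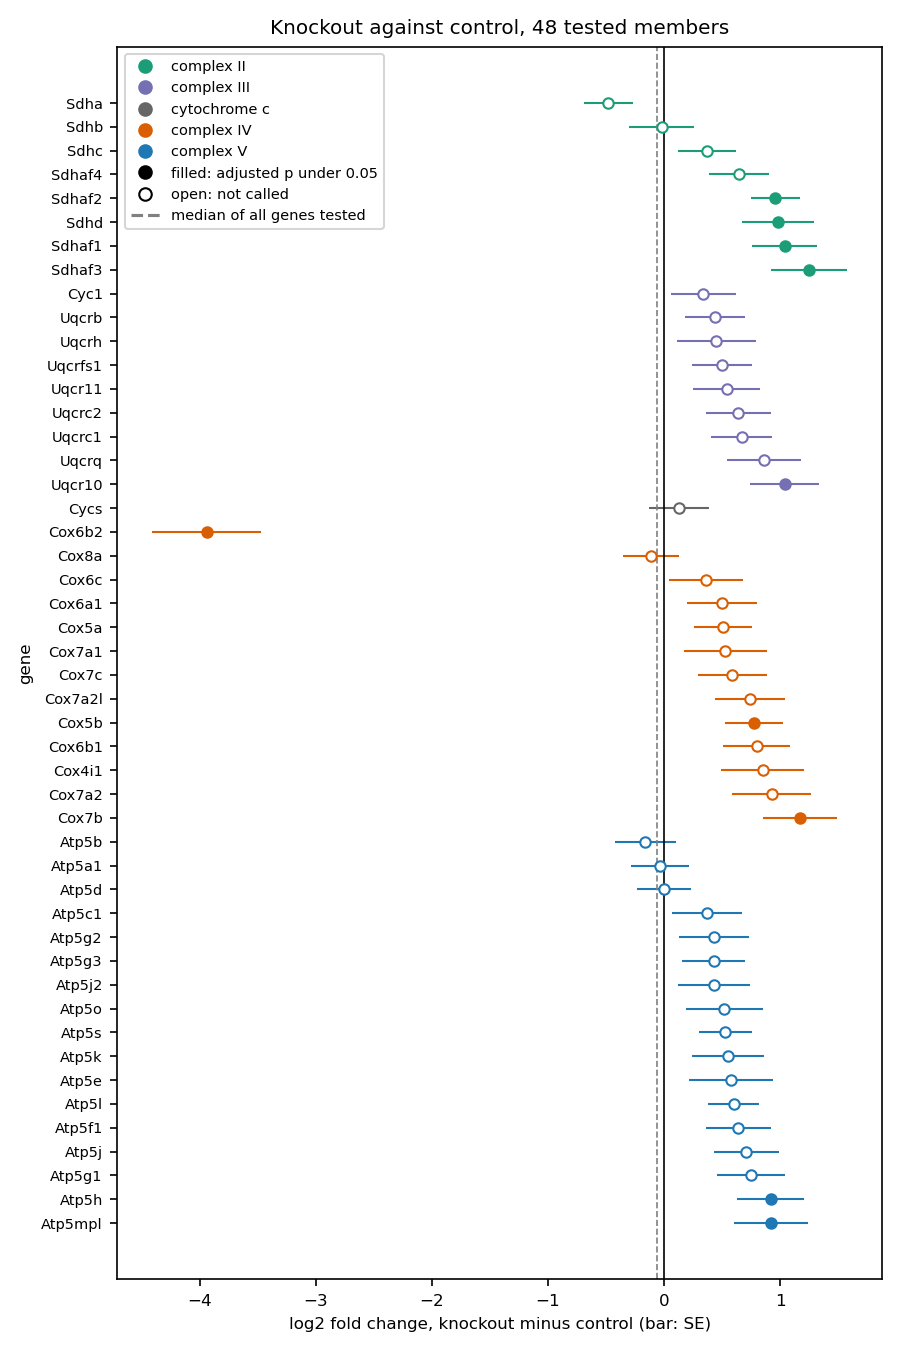
Log2 fold change, knockout minus control, of each of the 48 tested genes of complexes II to V, with its SE as a bar; filled points passed an adjusted p of 0.05, and the dashed line marks the median of all genes tested, -0.06. Cox6b2 lies alone at -3.94, Sdha at -0.48 is the next lowest, and 41 points lie above 0.

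By complex, the median log2 fold change was 0.81 in complex II, 0.54 in complex III, 0.59 in complex IV and 0.53 in complex V. Without control 486 the median was 0.86 over all members, 0.87 in complex III and 0.97 in complex IV, and without control 482 it was 0.34 in complex III, 0.39 in complex IV and 0.33 in complex V. These medians also depend on the scaling. With library sizes alone the median of all genes moved by -0.44, and those of the 4 complexes became 0.37, 0.11, 0.13 and 0.10. Relative to the median of all genes, the members' median was 0.60 with TMM and 0.61 with library sizes. With library sizes 34 members were positive and 14 negative, and the calls changed: 1 rose (Cox7b, 0.73, adjusted p = 0.042) and 4 fell, namely Cox6b2 (-4.39), Sdha (-0.92), Atp5b (-0.59) and Cox8a (-0.55), where 7.54% of all genes rose and 30.3% fell.

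The members moved together from mouse to mouse within each genotype. Among the controls, animal 486 had the highest CPM in 44 of the 48 members and animal 482 the lowest in 43, where over all genes 38.6% and 32.2% placed them so. Among the knockouts, animal 477 was highest in 43 and animal 476 lowest in 42, where over all genes 31.8% and 31.7% did. The median member stood at -0.39, -0.06 and 0.47 in the controls and 0.58, 0.28 and 0.89 in the knockouts, in log2 CPM relative to the control mean. Control 486 therefore lay above knockout 476, and the groups overlap in this median. Without any scaling, the members took 1.87%, 2.02% and 2.89% of all counts in controls. They took 2.55%, 2.0% and 2.41% in knockouts, and these shares overlap as well. Knockout 423 had a higher share than knockout 477 there, so which knockout stood highest depended on the scaling. The TMM factor was 0.975 in knockout 423 and 0.741 in knockout 477.

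**Figure D2:**
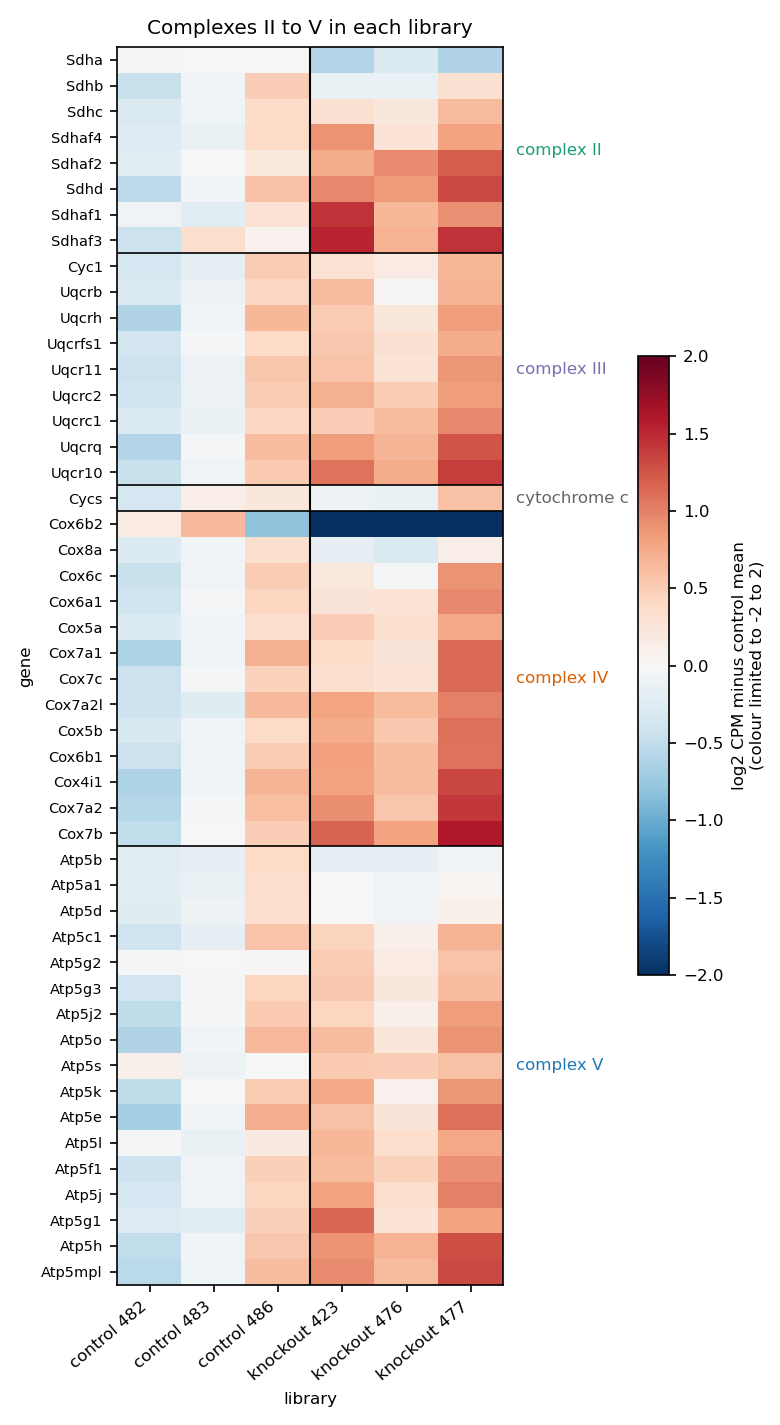
Each tested gene (rows, by complex) in each library (columns), as log2 CPM minus the mean of the 3 controls, with the colour limited to -2 to 2. Control 486 is red in most rows and knockout 476 is the palest of the knockouts, while Sdha and Cox6b2 are blue in all 3 knockout libraries.

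With the same TMM scaling, this order of mice was seen in some gene groups outside complexes II to V and not in others. The 37 tested genes with complex I symbols had medians of -0.43, -0.11 and 0.52 in controls and 0.61, 0.23 and 0.83 in knockouts, on the same scale. They include Ndufa4, which is named for complex I but is a subunit of complex IV. All 2958 tested genes with under 1500 exon bases had medians of -0.21, -0.12 and 0.32 and of 0.81, 0.54 and 0.83, against 0.02, -0.04 and 0.01 and -0.01, -0.03 and -0.10 for all genes. Mitochondrial ribosomal proteins (77 genes) had knockout 423 highest, with medians of -0.22, -0.23 and 0.45 and of 1.22, 0.69 and 1.03. So did 92 genes with Rpl or Rps symbols, with -0.30, -0.32 and 0.60 and 1.58, 0.72 and 1.22. These symbols are those of cytosolic ribosomal proteins, but the rule also matches the Rps6k kinase genes. Genes of 3000 or more exon bases ran in the reverse order, at 0.10, -0.01 and -0.11 and at -0.26, -0.20 and -0.41. Markers of other cells were counted as well. The summed CPM of 5 erythrocyte genes (haemoglobin chains and Alas2) was 7.94, 14.8 and 22.2 in controls and 128, 35.5 and 542 in knockouts, in the same order of mice within each genotype as the members, and all 5 of these genes rose. The 10 leukocyte markers summed to 103, 303 and 372 CPM in the controls and 154, 121 and 52.5 in knockouts, and the 10 smooth muscle and mesenchyme markers to 13.2, 50.9 and 19.4 and to 18.4, 11 and 75.7. Of the 9 tested leukocyte markers 1 rose and 2 fell, and of the 10 smooth muscle and mesenchyme markers none passed the test. The part of these cells, and of transcript length, in the members' values was not tested.

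**Figure D3:**
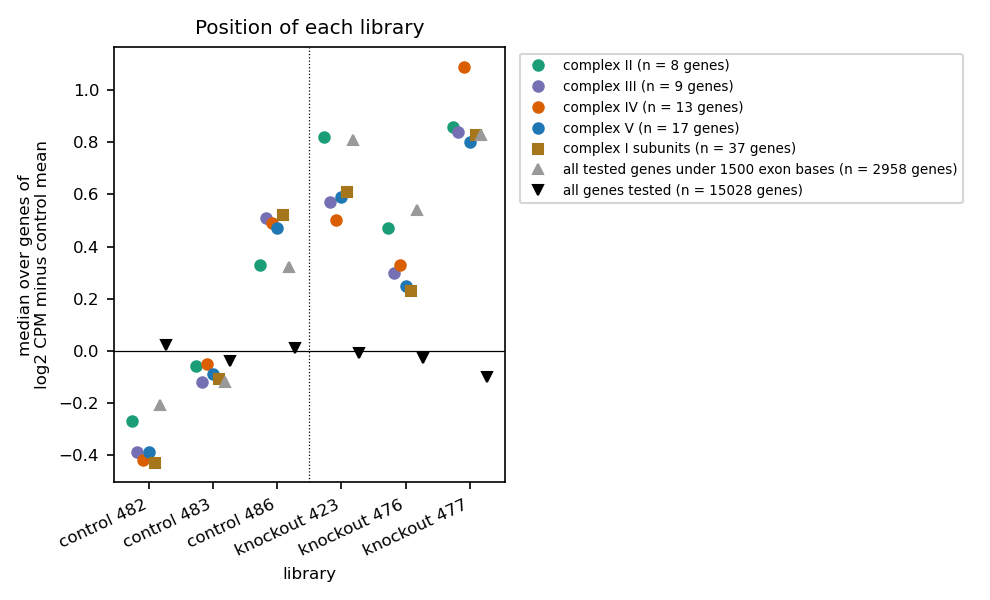
Median over the genes of each group of log2 CPM minus the control mean, in each of the 6 libraries. The 4 complexes, complex I (by symbol, with Ndufa4 included) and genes with under 1500 exon bases share the order of mice within a genotype under TMM scaling. All genes tested stay between -0.10 and 0.02.

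Which calls were made depended on single mice. Without control 482 only 1 member rose (9.98% of all genes did), and without control 483, knockout 423 or knockout 477 there were 2 each (9.91%, 12.2% and 10.3% of all genes). Without knockout 476 there were 9 (15% of all genes), and without control 486 there were 28 (19.3% of all genes). Sdhaf2 was the only one of the 9 that was called without each of the 6 libraries in turn, and Cox6b2 fell in every one of these fits. The tool mattered as well: 20 members rose by the DESeq2 Wald test (20.1% of all genes), 23 by limma-voom with sample weights (21.1%), 14 with upper-quartile scaling (18.8%) and 15 with no filter on low counts (10.3%), and the 9 named above were among them each time.

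Complex II held 4 of the 9 members that rose. These were 4 of its 8 tested genes, a share above the 17.3% of all genes that rose. Only Sdhd among them is a subunit, and the other 3 are assembly factors. The 4 subunits of the complex did not move as one. SDHA is the flavoprotein that oxidises succinate, SDHB carries the iron-sulphur clusters, and SDHC and SDHD anchor both in the membrane and form the ubiquinone site. Sdhd (ENSMUSG00000000171, chromosome 9 of mm10, 50596357 to 50603812) measured 494, 683 and 1070 CPM in the controls and 1380, 1280 and 1780 in the knockouts. No knockout overlapped a control, and Sdhd rose 1.98-fold (log2 fold change 0.98, SE 0.31, adjusted p = 0.036). Sdha (ENSMUSG00000021577, chromosome 13, 74322254 to 74350280) stood at 541, 532 and 533 CPM and at 358, 437 and 353. All 3 knockouts lay below the controls, but its log2 fold change of -0.48 (SE 0.21) did not pass the test (adjusted p = 0.099). Sdhb stood at 302, 395 and 577 CPM and at 376, 373 and 506 (-0.02, SE 0.28), and Sdhc at 241, 279 and 382 and at 365, 343 and 456 (0.37, SE 0.25). Both overlapped between genotypes, and the sign of Sdhb changed with the scaling.

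Ratios of 2 genes within a library do not depend on how libraries are scaled. There were 1.64, 1.73 and 1.85 Sdhd counts per Sdhb count in controls and 3.67, 3.43 and 3.51 in knockouts. The means were 1.74 ± 0.108 and 3.54 ± 0.124 (SD, n = 3), a 2.04-fold difference without overlap. Sdhd had the highest fold change of the 4 subunit genes, so a ratio apart follows in part from taking it. Ratios are also not corrected for exon length, which was 1231 bases in Sdhd and 2239 in Sdhb. With the length and GC trend of each library removed, the log2 fold change was 0.63 in Sdhd and -0.01 in Sdhb. Per Sdha count there were 0.914, 1.28 and 2.01 Sdhd counts and then 3.86, 2.93 and 5.03. Per Sdhc count there were 2.05, 2.45 and 2.80 and then 3.78, 3.73 and 3.89. Of the 6 pairs among the 4 subunit genes 5 did not overlap between genotypes, the exception being Sdhb to Sdha at 0.559, 0.743 and 1.08 and 1.05, 0.855 and 1.43. Over all 1128 pairs of tested members 539 did not overlap (47.8%), so that a pair apart is common among these genes.

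**Figure D4:**
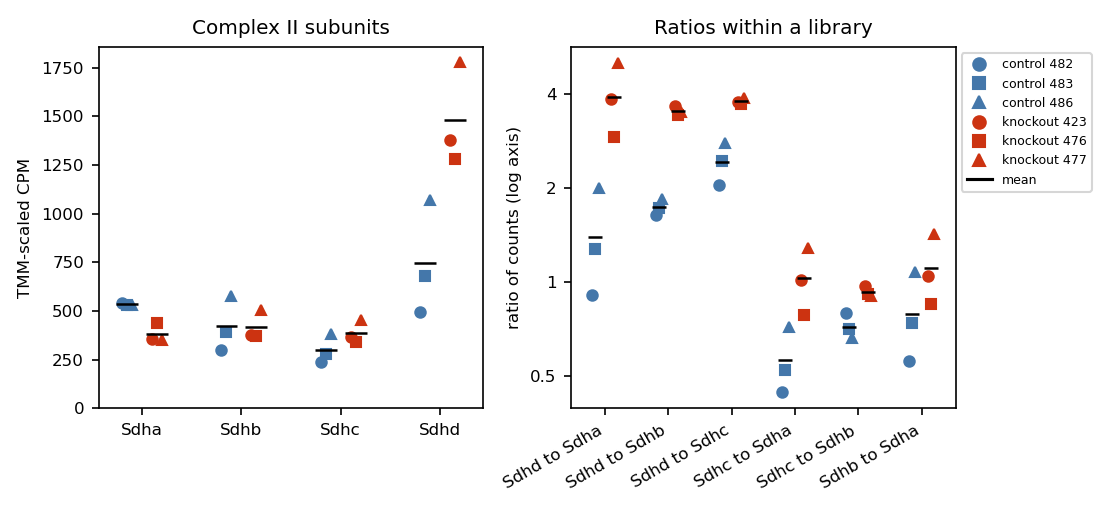
Left, TMM-scaled CPM of the 4 complex II subunit genes in each library with the mean as a bar; right, the 6 ratios of their counts within each library on a log axis. The ratio of Sdhd to Sdhb lies between 1.64 and 1.85 in controls and between 3.43 and 3.67 in knockouts.

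The 4 assembly factors of complex II had positive log2 fold changes, and 3 of them rose (75.0%, where 17.3% of all genes did). They are low-abundance genes next to the subunits. Sdhaf2, which helps to attach FAD to SDHA (ENSMUSG00000024668, chromosome 19, 10500534 to 10526142), was at 27.6, 32.3 and 37.3 CPM in the controls and 53.9, 61.8 and 74.3 in knockouts, without overlap (log2 fold change 0.96, SE 0.21, adjusted p = 0.0073). Sdhaf3, a factor for the maturation of SDHB (ENSMUSG00000042505, chromosome 6, 6956004 to 7042979), stood at 2.17, 3.78 and 3.14 CPM and at 8.61, 4.82 and 8.16 (1.25, SE 0.33, adjusted p = 0.018). This was the highest fold change of all 48 tested members, at a level of few counts, and the knockouts again lay above the controls. Sdhaf1, also a factor for SDHB (ENSMUSG00000074211, chromosome 7, 30321406 to 30323895), stood at 5.6, 5.06 and 7.22 CPM and at 16.2, 9.37 and 11.2 (1.04, SE 0.28, adjusted p = 0.018). Its value is uncertain, because 69.6% of its exon bases are overlapped by E130208F15Rik on the opposite strand and the strand setting of the counting is not given. Sdhaf4 overlapped between genotypes and did not pass the test (0.65, adjusted p = 0.077). With library sizes alone none of the 3 factors kept its call. With the length and GC trend of each library removed, all 3 kept theirs, and Sdhd lost its own (0.63, adjusted p = 0.11).

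The promoters of Sdha and Sdhd are shown because these 2 genes of one enzyme had log2 fold changes of opposite sign. Each sequence is the 250 bases before the RefSeq start on GRCm38.p6, read on the gene's own minus strand (chr13:74350241-74350490 for Sdha and chr9:50603850-50604099 for Sdhd). Capitals mark matches to the core NRF1 motif CGCANGCG or the ETS motif CCGGAAG, which GABP binds, on either strand.
Sdha: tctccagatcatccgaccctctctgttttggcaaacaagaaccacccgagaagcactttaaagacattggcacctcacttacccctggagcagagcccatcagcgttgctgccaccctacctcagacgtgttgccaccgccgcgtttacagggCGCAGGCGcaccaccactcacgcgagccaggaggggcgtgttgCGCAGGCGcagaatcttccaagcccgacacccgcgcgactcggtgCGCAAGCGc
Sdhd: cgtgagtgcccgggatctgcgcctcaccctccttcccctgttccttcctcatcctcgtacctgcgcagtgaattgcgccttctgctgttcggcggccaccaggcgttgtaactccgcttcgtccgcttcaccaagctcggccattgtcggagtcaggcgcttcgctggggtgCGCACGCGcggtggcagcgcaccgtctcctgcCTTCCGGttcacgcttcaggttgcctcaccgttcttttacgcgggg
Sdha holds 3 NRF1 matches, which begin 97, 54 and 9 bases before the start, and no ETS match. Sdhd holds 1 NRF1 match at 78 bases and 1 ETS match, on the opposite strand, at 46 bases.

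RefSeq promoters were found for 39 of the 53 member symbols. In these 250-base windows the NRF1 motif occurred in 11 of 39 (28.2%) and in 6.76% of 32851 RefSeq promoters of the same length. The ETS motif also occurred in 11 of 39 (28.2%) and in 6.91% of all, and the oestrogen-related receptor motif TCAAGGTCA in 1, Atp5g3 (2.56%), and in 0.387% of all. No NRF1 and ETS matches overlap in the sequences printed. Of the 11 members with the NRF1 motif (Atp5c1, Atp5g2, Atp5h, Atp5j, Atp5k, Atp5l, Cox6a1, Cycs, Sdha, Sdhaf4 and Sdhd) 2 rose, and of the 11 with the ETS motif (Atp5e, Atp5h, Atp5j, Atp5l, Cox6a1, Cox6b1, Sdhaf2, Sdhaf3, Sdhd, Uqcr11 and Uqcrh) 4 did, where 18.8% of all tested members and 17.3% of all genes rose. These matches describe the letters only.

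Complex III had a positive log2 fold change in all 9 genes, and 1 of them rose (11.1%, where 17.3% of all genes did). Uqcr10, a small supernumerary subunit (ENSMUSG00000059534, chromosome 11, 4701973 to 4704342), was at 161, 206 and 315 CPM in the controls and at 466, 366 and 567 in knockouts. The groups did not overlap (2.05-fold, log2 fold change 1.04, SE 0.30, adjusted p = 0.024). Cyc1, cytochrome c1, stood at 402, 447 and 721 CPM and at 619, 566 and 798, the lowest fold change of the complex (0.34, SE 0.28). Uqcr10 counts per Cyc1 count were 0.433 ± 0.0308 in controls and 0.703 ± 0.0538 in knockouts (SD, n = 3), without overlap. These genes had the highest and lowest fold changes of the complex, so a ratio apart follows in part from taking them. Of all pairs of members 47.8% were apart. Uqcrh, the hinge protein that helps cytochrome c1 to bind cytochrome c, had the highest level of the complex per exon length, a mean of 773 RPKM (CPM per kilobase of exon) over the 6 libraries. It stood at 497, 728 and 1200 CPM and at 1080, 888 and 1350, with overlap (0.45, SE 0.34).

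The core proteins Uqcrc1 and Uqcrc2, which face the matrix, had log2 fold changes of 0.67 (adjusted p = 0.071) and 0.64 (adjusted p = 0.097). Uqcrc1 counts per Uqcrc2 count did not separate the genotypes (1.09 ± 0.0800 and 1.11 ± 0.147, SD, n = 3). The Rieske iron-sulphur protein Uqcrfs1 (0.50), Uqcr11 (0.54), Uqcrb (0.44) and the ubiquinone-binding subunit Uqcrq (0.86, adjusted p = 0.061) did not pass the test either. Of the 9, Uqcr10, Uqcrc1 and Uqcrq had every knockout above every control (33.3%, where 23.9% of all genes did). In Uqcrb, 25.5% of its 50-base windows also occur in other genes, so its count is uncertain. By the DESeq2 Wald test 4 of the 9 rose (Uqcr10, Uqcrc1, Uqcrc2 and Uqcrq), where 20.1% of all genes did.

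Cycs, the somatic cytochrome c, stood at 27.7, 39.1 and 41.4 CPM in the controls and at 33.0, 32.2 and 53.4 in knockouts. The groups overlapped (log2 fold change 0.13, SE 0.26, adjusted p = 0.71), and the sign of the difference changed with library sizes alone (-0.33). Its mean of 11.1 RPKM lay well below those of Cyc1 (275 RPKM) and Uqcrh. Of its 50-base windows 26.2% also occur in other genes.

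Complex IV held the member with the largest difference. Cox6b2 encodes the isoform of subunit 6B best known from testis (ENSMUSG00000051811, chromosome 7, 4751792 to 4753094). It had 309, 270 and 169 counts in controls and 10, 11 and 9 in knockouts. As CPM these were 6.51, 9.11 and 3.30 and 0.362, 0.365 and 0.517, and the groups did not overlap. Cox6b2 fell 15.3-fold (log2 fold change -3.94, SE 0.47, adjusted p = 0.00042), and it was called under all 18 alternatives, with log2 fold changes from -4.39 to -3.05.

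The general isoform Cox6b1 did not follow it. It stood at 408, 520 and 787 CPM in the controls and 971, 846 and 1170 in knockouts, without overlap, though it did not pass the test (0.80, SE 0.29, adjusted p = 0.055). As a share of the RPKM of both genes, Cox6b2 was 0.793% ± 0.459 in controls and 0.0265% ± 0.00239 in knockouts (SD, n = 3). The ratio of Cox6b2 to Cox6b1 counts was 30.2-fold lower in knockouts, so the isoform that fell was a minor one in this tissue. The 2 promoters are shown for contrast, again as 250 bases before the RefSeq start on the minus strand of GRCm38.p6 (chr7:30626115-30626364 for Cox6b1 and chr7:4753095-4753344 for Cox6b2), with motif matches in capitals.
Cox6b1: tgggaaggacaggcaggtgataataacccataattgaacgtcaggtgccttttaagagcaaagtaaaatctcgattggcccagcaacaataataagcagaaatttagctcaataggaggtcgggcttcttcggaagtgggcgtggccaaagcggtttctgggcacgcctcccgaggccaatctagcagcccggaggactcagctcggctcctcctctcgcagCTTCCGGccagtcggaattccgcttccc
Cox6b2: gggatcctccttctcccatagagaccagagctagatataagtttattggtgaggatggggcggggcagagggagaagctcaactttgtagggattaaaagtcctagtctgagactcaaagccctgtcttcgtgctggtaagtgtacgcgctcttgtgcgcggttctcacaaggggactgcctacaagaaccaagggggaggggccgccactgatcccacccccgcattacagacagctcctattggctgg
Cox6b1 holds 1 ETS match, 28 bases before the start on the opposite strand, and Cox6b2 holds no match to the 3 motifs in this window.

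Among the other subunits of complex IV, Cox7b and Cox5b rose. They make up 15.4% of the 13 tested genes of the complex, where 17.3% of all genes rose. Cox7b (ENSMUSG00000031231, chromosome X, 106015700 to 106022450) was read at 376, 529 and 739 CPM in the 3 controls and at 1180, 924 and 1600 in knockouts, without overlap (2.25-fold, log2 fold change 1.17, SE 0.32, adjusted p = 0.019). Cox5b, a subunit on the matrix side (ENSMUSG00000061518, chromosome 1, 36691449 to 36693681), stood at 117, 141 and 190 CPM and at 244, 213 and 313, without overlap (0.78, SE 0.25, adjusted p = 0.037). Its partner Cox5a did not pass the test (0.51, adjusted p = 0.13). Cox8a, the general isoform of subunit 8, had the lowest fold change of the complex after Cox6b2, at 309, 361 and 468 CPM and 335, 307 and 411 (-0.11, SE 0.24). There were 1.22, 1.46 and 1.58 Cox7b counts per Cox8a count in controls and 3.53, 3.01 and 3.88 in knockouts, a 2.45-fold difference in the means. Cox6b2 aside, these were the highest and lowest fold changes of the complex, so a ratio apart follows in part from taking them. Cox8a fell with library sizes alone and with the length trend removed (-0.79, adjusted p = 0.023, where 13.6% of all genes fell), and was 0.07 without control 486.

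Cox4i1, the general isoform of subunit 4, had the highest level of all members per length in the mean over the 6 libraries (1210 RPKM), at 865 ± 389 RPKM in controls and 1560 ± 423 in knockouts (SD, n = 3). In controls alone Cox6a1 lay level with it, at 868 ± 250 RPKM (SD, n = 3). It stood at 815, 1210 and 2000 CPM and at 2180, 1920 and 3170, where control 486 reached above knockout 476 (0.85, SE 0.36, adjusted p = 0.088). Its counterpart Cox4i2, induced by low oxygen in other tissues, had 6 counts over all 6 libraries and was not tested. Cox6c (0.36), Cox6a1 (0.50), Cox7c (0.59) and Cox7a2l, the supercomplex assembly protein (0.74, adjusted p = 0.078), overlapped between genotypes and did not pass the test. With control 486 left out 9 of the 13 tested complex IV genes rose (19.3% of all genes did). Without control 482, control 483 or knockout 477 none did, where 9.98%, 9.91% and 10.3% of all genes rose.

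Where a subunit of complex IV has tissue isoforms, the general one was by far the more abundant in every set but one. Cox6a1 stood at 452, 577 and 799 CPM and at 710, 723 and 1160, while the heart and muscle isoform Cox6a2 had 53 counts in all 6 libraries together and took 0.0522% of their RPKM in controls and 0.0231% in knockouts. The isoforms Cox7b2, Cox8b and Cox8c had no count in any library, which allows up to 3 counts, or 0.0585 to 0.172 CPM per library. The exception was subunit 7A. Cox7a1, known as its heart and muscle isoform, stood at 126, 183 and 318 CPM and at 251, 233 and 424 (0.53, SE 0.36). Cox7a2, the general isoform, stood at 302, 435 and 682 and at 850, 658 and 1190 (0.93, SE 0.34, adjusted p = 0.059).

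By RPKM, Cox7a1 made up 42.4%, 42.6% and 45.2% of subunit 7A transcripts in controls and 34.2%, 38.5% and 38.6% in knockouts. These shares depend on the annotated exon bases, 535 for Cox7a1 and 944 for Cox7a2. Without division by length, Cox7a1 counts per Cox7a2 count were 0.435 ± 0.0276 in controls and 0.335 ± 0.035 in knockouts (SD, n = 3). The knockouts lay below the controls, at 37.1% ± 2.5 against 43.4% ± 1.54 (SD, n = 3), a separation that 47.8% of all pairs of members showed in one direction or the other. Markers of muscle were low beside it. Of 6 striated muscle markers Myh7, Myl2 and Mb had no count in any library, and the 6 summed to 2.48 to 2.89 CPM in the controls and 0.963 to 1.15 in knockouts. Of 5 brown adipocyte markers Ucp1 and Elovl3 had no count, and the 5 summed to at most 0.506 CPM.

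**Figure D5:**
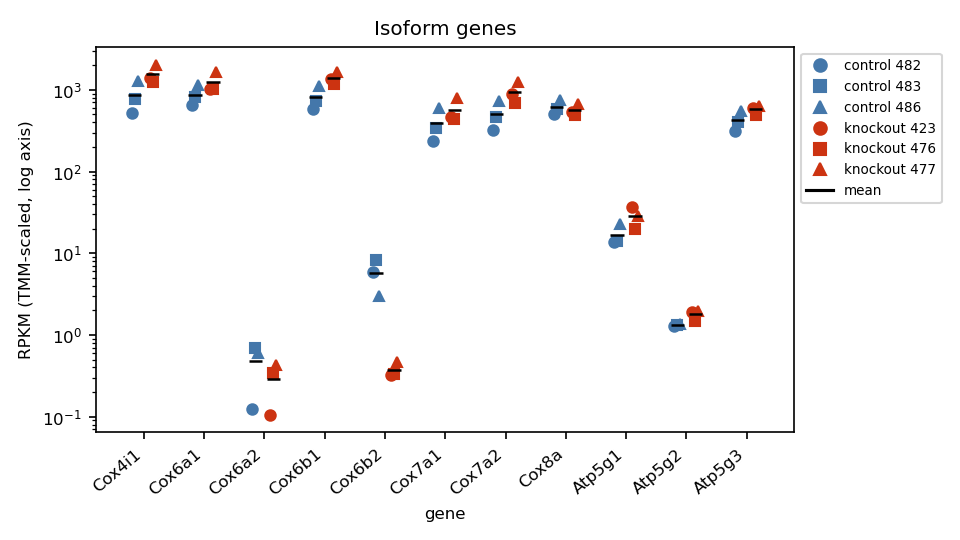
RPKM on a log axis of the isoform genes of complex IV subunits and of the c-ring of complex V in each library, with the group mean as a bar; genes under 10 counts over all libraries are left out. Cox7a1 lies close to Cox7a2, whereas Cox6a2, Cox6b2 and Atp5g2 lie far below their partners, and Cox6b2 falls from 5.69 to 0.374 RPKM.

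In complex V 2 of 17 tested genes rose (11.8%, where 17.3% of all genes did), and neither encodes a part of the catalytic head. None of the 5 F1 genes passed the test, and all overlapped between genotypes. Whether the head differs from the rest of the complex was not tested. Atp5b, the catalytic beta subunit, stood at 1910, 1990 and 2930 CPM in the controls and at 1990, 2000 and 2140 in knockouts, the lowest fold change of the complex (-0.16, SE 0.26). Atp5a1, the alpha subunit, had the highest level of the complex per length in the mean over the 6 libraries (549 RPKM), though not in knockouts alone, where Atp5g3 lay above it (577 against 544 RPKM). Atp5a1 stood at 1480, 1550 and 2180 CPM and at 1710, 1650 and 1750 (-0.03, SE 0.25). Atp5d (delta) had a log2 fold change of -0.00, Atp5c1 (gamma) 0.37 and Atp5e (epsilon) 0.58. The signs of Atp5a1, Atp5b and Atp5d changed with the scaling or the length correction. Atp5a1 counts per Atp5b count were 0.773, 0.778 and 0.744 in controls and 0.862, 0.825 and 0.818 in knockouts (0.765 ± 0.0185 and 0.835 ± 0.0235, SD, n = 3), a 1.09-fold difference without overlap.

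Outside the head, Atp5h and Atp5mpl rose. Atp5h encodes subunit d of the peripheral stalk, which holds the head still (ENSMUSG00000034566, chromosome 11, 115415689 to 115419962). It stood at 109, 148 and 223 CPM in the controls and at 285, 249 and 374 in knockouts, without overlap (1.89-fold, log2 fold change 0.92, SE 0.29, adjusted p = 0.036). Of its 50-base windows 19.9% also occur in other genes. Per Atp5b count there were 0.0570, 0.0744 and 0.0761 Atp5h counts and then 0.144, 0.124 and 0.175, a 2.13-fold difference in the means. Atp5b had the lowest fold change of the complex and Atp5h one of the highest, so a ratio apart follows in part from taking them. Atp5mpl, a small proteolipid of the membrane part (ENSMUSG00000021290, chromosome 12, 111961375 to 111966977), stood at 142, 194 and 318 CPM and at 399, 319 and 516. Control 486 and knockout 476 differed by little there, and the adjusted p of 0.0499 is just inside the threshold (0.92, SE 0.32). The next member outside it was Cox6b1, at 0.055.

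The other stalk genes did not pass the test: Atp5f1 (subunit b, 0.64), Atp5j (coupling factor 6, 0.71) and Atp5o (the oligomycin-sensitivity protein, 0.52). Of the exon bases of Atp5o 47.9% are overlapped by other genes, and a second identifier with that symbol had no count. Nor did the membrane subunits Atp5j2 (0.43), Atp5k (0.55) and Atp5l (0.60, adjusted p = 0.061), or Atp5s, known as coupling factor B (0.53). Atp5l, Atp5s and Atp5g2 had every knockout above every control, as did Atp5h and Atp5mpl. Together they make up 29.4% of the tested complex V genes, where 23.9% of all genes lay so.

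The c-ring, through which the protons pass, is made from 3 genes that encode the same mature protein. Atp5g3 made up 95.9% ± 0.425 of their RPKM in controls and 95.1% ± 0.923 in knockouts (SD, n = 3), at 692, 887 and 1220 CPM and 1320, 1060 and 1400. RPKM divide by all annotated exon bases, 2181 for Atp5g3 and 4912 for Atp5g1, so the shares depend on the annotation. Atp5g1 stood at 67.7, 69.8 and 112 CPM and at 180, 98.3 and 141 (0.75, SE 0.29, adjusted p = 0.067), and it rose in the fit with the length and GC trend of each library removed. Of its 50-base windows 11.1% also occur in other genes. Atp5g2 stood at 2.17, 2.23 and 2.26 CPM and at 3.18, 2.49 and 3.33 (0.43, SE 0.30), with 38.4% of its 50-base windows also in other genes. The shares of all 3 genes overlapped between genotypes.

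Genes that build the complexes were listed by name and not by value, but with earlier results of these data known. Of 25 tested assembly, copper and haem delivery factors of complex IV, 13 rose and none fell (52.0%, where 17.3% of all genes rose); their median was 0.66. The 4 with the smallest adjusted p were Slirp, which stabilises mitochondrial transcripts (1.81, adjusted p = 0.0026), Coa5 (0.94, adjusted p = 0.0051), Coa3 (1.38, adjusted p = 0.0092) and the haem A synthase Cox15 (0.90, adjusted p = 0.011). Of 6 complex III factors 1 rose (16.7%), Uqcc2 (0.99, adjusted p = 0.028), and of 5 complex V factors 1 did (20.0%), Tmem70 (1.53, adjusted p = 0.0029), both shares near that of all genes.

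Other subunits of these complexes lie outside the symbol rule. Ndufa4, named for complex I but a subunit of complex IV, stood at 136, 277 and 430 CPM in the controls and at 1010, 769 and 1350 in knockouts (1.89, SE 0.41, adjusted p = 0.0074). Usmg5, a membrane subunit of complex V, rose by a log2 fold change of 0.85 (adjusted p = 0.048), and the ATPase inhibitor Atpif1 did not (0.06). The tested genes with complex I symbols, Ndufa4 among them, had 7 of 37 that rose (18.9%, near the 17.3% of all genes) and 1 that fell, with a median of 0.50. Mitochondrial ribosomal proteins had 50 of 77 that rose (64.9%, median 1.01). Genes with the Rpl and Rps symbols of cytosolic ribosomal proteins had 56 of 92 that rose (60.9%, median 1.12). That symbol rule also matches the Rps6k kinase genes.

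The citric acid cycle enzymes feed the chain. The list made for them also holds pyruvate dehydrogenase genes (Pdha1, Pdhb and Dlat) and Mdh1, the cytosolic malate dehydrogenase. These genes had log2 fold changes of -0.33, -0.29, -0.28 and -0.21 and did not pass the test. Of the 18 tested genes on the list none rose and 2 fell (11.1%, where 18.3% of all genes fell). Those that fell were the 2-oxoglutarate dehydrogenase subunits Ogdh (-0.91, adjusted p = 0.016) and Dlst (-0.63, adjusted p = 0.038). The median of the whole list was 0.00. Of 15 regulators of mitochondrial biogenesis none rose and 2 fell (13.3%), so neither list exceeded the share of all genes that fell. These 2 were Ppargc1a, which encodes PGC-1 alpha, at 41.9, 46.9 and 27.8 CPM in the controls and 15.5, 11.1 and 10.5 in knockouts (-1.65, SE 0.26, adjusted p = 0.0018), and the deacetylase gene Sirt1 (-1.31, adjusted p = 0.0018). Nrf1, Gabpa and Esrra did not pass the test.

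Transcript length moved with fold change over all genes, and less so among the members. Across the 48 tested members Spearman's rho between log2 fold change and exon length was -0.13, against -0.37 across 15018 genes; genes are not independent replicates. Members with under 1500 exon bases had a median log2 fold change of 0.59 where all such genes had 0.74. Members with 1500 to 3000 bases had 0.52 where all such genes had 0.13, and members with 3000 or more had 0.51 where all such genes had -0.28. With the length and GC trend of each library removed, the members' median was 0.42 and that of all genes 0.10. In that fit 6 members rose (18% of all genes did): Sdhaf1, Sdhaf2 and Sdhaf3, and in place of the rest Atp5g1, Atp5l and Uqcrc1.

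The genes outside the members whose log2 CPM followed the members' median most closely over the 6 libraries were Ndufa3 of complex I (Pearson r of 0.9959), the pseudogene Uqcrh-ps1 (0.994), the ubiquitin-like gene Ubl5 (0.9937), Gm5436 (0.9924) and the UFM1-conjugating enzyme gene Ufc1 (0.9916). Of 14980 genes 147 (0.981%) had an r above 0.95. These correlations rest on 6 libraries and share their scaling and the order of mice.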

How the data were processed

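Per the labels' protocols, RNA of scraped small intestinal epithelium from 6 mice was made into paired-end TruSeq libraries. The submitters' processing notes name STAR 2.7.9a, featureCounts, Subread 1.6.2, fastp 0.21.0, bcl2fastq, DESeq2 1.23.10, FastQC 0.11.7 and the build mm10. For the annotation and the strand setting of the counts: not given in the sources used here. The authors deposited whole-number counts per gene, which are not normalized, and a second table of variance-stabilised values on a log2 scale, used for 1 alternative only. Of 55450 identifiers 55190 had a GENCODE M21 symbol, which gave the members, coordinates and exon lengths.

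In R 4.3.3, edgeR 4.0.16 was run on all genes: filterByExpr with its defaults left 15028, libraries were scaled by TMM, and the robust quasi-likelihood test compared 3 knockouts with 3 controls (Benjamini-Hochberg, threshold 0.05). CPM are TMM-scaled, RPKM divide them by exon length, and a prior count of 2 entered log2 CPM. SE is the size of the log2 fold change over the square root of F. The test was checked on simulated counts with 200 changed genes. Intervals and floors cover counting error only. The 18 alternatives were other scalings and filters, DESeq2 1.42.0, limma 3.58.1 (voom with and without sample weights, and trend), removal of a smooth length and GC trend per library, or of length alone, and each library left out.

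Sequence sharing was counted over all 50-base windows of a gene's transcripts. Promoters came from RefSeq on GRCm38.p6. Values in every library are given for members that passed the test, for the most abundant, highest and lowest of each complex, for isoform sets with at least 10 counts, and for Sdh subunits, Cyc1 and Cycs; of other lists, up to 4 called genes by adjusted p are named. The members and lists were chosen with earlier results of these data known. The second targeted gene is not reported here.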

Additional observations from a re-analysis of the deposited data

How the results depend on the processing

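No paired analysis was possible because the animal numbers in the labels are not shared between genotypes. The number of members that rose (9) was 14 with upper-quartile scaling, 15 with no filter on low counts, 20 by the DESeq2 Wald test, 23 by limma-voom with sample weights, 1 with library sizes alone, and 1 to 28 with 1 library left out, the lowest without control 482 and the highest without control 486. The number that fell (1) was 4 with library sizes alone and 2 with the length trend removed (Cox6b2 and Cox8a). The other alternatives kept both counts within 1.5 times. With library sizes alone the median log2 fold change was 0.12 over all tested members, 0.37 in complex II, 0.11 in complex III and 0.13 in complex IV. With the length and GC trend removed it was 0.52 in complex II and 0.26 in complex IV, and with the length trend alone 0.59 in complex II. With 1 library left out it ran from 0.38 to 0.86 over all members, 0.64 to 0.98 in complex II, 0.34 to 0.87 in complex III, 0.39 to 0.97 in complex IV and 0.33 to 0.73 in complex V, lowest without control 482 and highest without control 486 each time. The causes of these changes were not tested.

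Members that had not passed the test changed sign as follows. Atp5a1 became 0.0025 with median-of-ratios scaling and by DESeq2, 0.03 with upper quartiles, 0.00097 by voom, 0.07 by voom with weights and with the length trend removed, 0.00012 on the variance-stabilised values and 0.15 with length and GC removed, and ran from -0.14 to 0.17 with 1 library left out. In the same order Atp5d became 0.02 and 0.02, 0.05, 0.02, 0.09 (weights), 0.02 and 0.14, was 0.0091 without the 20 most abundant genes, and ran from -0.12 to 0.18. Sdhb became 0.0077 with median-of-ratios scaling and by DESeq2, 0.03 with upper quartiles, 0.02 by voom and on the variance-stabilised values and 0.12 with weights, and ran from -0.22 to 0.26. With library sizes alone Atp5c1 was -0.06, Atp5g2 -0.0081, Atp5j2 -0.01, Cox6c -0.09, Cyc1 -0.10, Cycs -0.33 and Sdhc -0.07. With length and GC removed Atp5b was 0.09, Cox7a1 -0.01, Cox7c -0.03, Sdhaf4 -0.00017 and Uqcrb -0.31. With the length trend removed Atp5b was 0.07, Atp5k -0.13, Cox6a1 -0.12, Cox7a1 -0.14, Uqcr11 -0.11 and Uqcrb -0.09. With 1 library left out Atp5b ran from -0.27 to 0.07, Cox8a from -0.25 to 0.07 and Cycs from -0.13 to 0.28. Of the 10 members called, Cox6b2 was called under 18 of 18 alternatives, Sdhaf2 under 17, Cox7b, Sdhaf1 and Sdhaf3 under 14, Atp5h, Cox5b and Uqcr10 under 11, and Sdhd and Atp5mpl under 10, and none of the 10 changed sign. Members with few counts, such as Atp5g2, Sdhaf3 and Cox6b2 in knockouts, are limited by depth.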

Other observations

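Of the 48 tested members 12 have a neighbour that starts close by and runs the other way, and the log2 fold changes of a pair did not always have the same sign. Timm8b, which starts 98 bases from Sdhd and encodes a small chaperone of the mitochondrial intermembrane space, rose with it, from 43.3, 53.8 and 100.0 CPM in controls 482, 483 and 486 to 232, 148 and 279 in knockouts 423, 476 and 477 (log2 fold change 1.74, adjusted p = 0.0058, edgeR quasi-likelihood test). Ccdc127, which starts 29 bases from Sdha, rose (12.1, 12.3 and 14.1 CPM, then 24.0, 20.2 and 22.0; 0.78, adjusted p = 0.013), where Sdha had a log2 fold change of -0.48. Gdf9, which starts 192 bases from Uqcrq and encodes a growth factor of the oocyte, rose from 1.22, 2.23 and 1.07 CPM to 25.3, 26.1 and 41.9 (4.39, adjusted p = 6.2e-05), beside 0.86 for Uqcrq. Kctd2 at Atp5h (-0.15), Zmat5 at Uqcr10 (0.31) and Lrrc41 at Uqcrh (0.22) did not pass the test.

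Processed pseudogenes with member symbols gave 8 tested rows. Of these Atp5l2-ps rose (2.11, 2.83 and 3.08 CPM, then 8.03, 6.41 and 10.9; log2 fold change 1.66, adjusted p = 0.0036), as did Atp5l-ps1 (1.27, adjusted p = 0.027), and 6 did not pass the test. Atp5l itself stood at 8.02, 7.35 and 9.31 CPM and at 13.1, 10.5 and 14.0, and 9.99% of its 50-base windows also occur in other genes, so reads of the gene and of these copies may not be told apart.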
